A study of Mus musculus with 4 samples.

Results

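The adrenergic receptors are the G protein-coupled receptors through which noradrenaline and adrenaline act on cells. They were followed in mRNA sequencing of the medial prefrontal cortex (mPFC) as 6 genes chosen by name, Adra1a, Adra1b, Adra1d, Adra2a, Adra2c and Adrb1, among 17778 genes of the table. The 6 genes were taken because of their family and not because of their values. All 6 reached 0.5 RPKM (reads scaled to the length of the gene and to the reads of the library) in at least 1 group, as did 14257 genes in all, and these are called the genes tested below.

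The samples came from male C57BL/6 mice (C57BL/6J in the methods of the study) that entered the experiment at postnatal day 21. The CUMS group (2 libraries) lived under chronic unpredictable mild stress for 3 weeks, which means social isolation together with stressors such as restraint, tilted or damp cages, noise, strobe light and a disturbed light cycle, and had been selected as depression-like on sucrose preference, Y-maze and forced swimming. Control mice (2 libraries) lived without these stressors and were tested in the same way. The mPFC of both sides was dissected 24 hours after the tests. The model covers only the stressed mice that met all behavioral criteria, and the sources do not state whether a library held 1 mouse or a pool.

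Noradrenaline reaches the prefrontal cortex through fibers of the locus coeruleus, a nucleus of the brainstem. Receptors of the alpha1 class couple to Gq proteins and activate phospholipase C, those of the alpha2 class couple to Gi/o proteins, lower cyclic AMP (cAMP) and also serve as autoreceptors on the noradrenergic fibers, and beta receptors couple to Gs proteins and raise cAMP. In the prefrontal cortex the balance among these classes is known to shape working memory under calm and stressful conditions, with the alpha2A receptor best known for a supporting role.

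The deposited value of each gene was the mean over the libraries of a group, so that single libraries could not be compared and the spread between mice is unknown for every difference below. Intervals given below are 95% intervals of counting error alone, computed from the number of fragments that was estimated from the low values of the table (7473842 per control library and 7485030 per CUMS library). In bulk tissue, fewer cells of a type and less RNA per cell cannot be told apart.

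Adra2a and Adrb1 had the lowest and the highest ratio between the groups, and the 250 bases before the start of each gene are shown for this reason (RefSeq, GRCm38.p6). Both genes lie on the plus strand of chromosome 19, at chr19:54045009-54045258 and chr19:56721867-56722116. Capitals mark every match to the motifs searched, in either direction.
Adra2a: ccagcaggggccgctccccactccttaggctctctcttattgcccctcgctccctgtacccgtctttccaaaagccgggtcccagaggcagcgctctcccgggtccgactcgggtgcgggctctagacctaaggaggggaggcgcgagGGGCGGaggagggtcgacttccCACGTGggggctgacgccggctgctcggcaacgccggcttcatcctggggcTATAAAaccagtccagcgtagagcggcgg
Adrb1: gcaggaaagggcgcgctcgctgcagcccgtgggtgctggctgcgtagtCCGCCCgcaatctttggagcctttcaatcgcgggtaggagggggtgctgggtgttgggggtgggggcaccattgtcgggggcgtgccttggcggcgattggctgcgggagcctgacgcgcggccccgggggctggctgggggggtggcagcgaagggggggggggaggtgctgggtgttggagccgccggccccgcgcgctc
The motifs searched were the TATA box (TATAAA), the E-box (CACGTG), the GC box (GGGCGG), the cAMP response element (TGACGTCA) and a short glucocorticoid receptor motif (TGTTCT). The stretch before Adra2a held the TATA box, the E-box and the GC box, each in a single match, and the matches did not overlap. The stretch before Adrb1 held only the GC box, on the opposite strand. Of 32851 mouse promoter stretches of the same length, 12.4% held the TATA box, 6.02% the E-box, 32.7% the GC box, 1.55% the cAMP response element and 16.1% the glucocorticoid receptor motif. RefSeq stretches were also found for Adra2c and for both starts of Adra1b, which makes 4 receptors with 5 stretches. The stretch of Adra2c held the E-box, 1 of the stretches of Adra1b held the GC box, and the other held none of the 5 motifs. Neither the cAMP response element nor the glucocorticoid receptor motif was found in any of the 5 stretches, which says only that these letters are not in these windows.

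For each of the 6 receptors, the group means of depression-like and control mice lay within 1.5-fold. Past this fold were 0 of 6 higher and 0 of 6 lower, where 2.77% of the genes tested were higher and 4.41% were lower. With 6 genes, 0 is near these shares, so the count does not show that expression was equal. Of the 6 genes, 2 had a higher and 4 a lower mean in CUMS, beside 6639 higher and 7589 lower of the 14257 genes tested. Their median log2 ratio of CUMS over control was -0.05, beside -0.015 over all genes tested, and their median absolute log2 ratio was 0.092, beside 0.13. The counting interval lay below 0 for 1 receptor, Adra2a, and above 0 for 0 receptors, where 16.8% of the genes tested lay below and 12.6% lay above. The 5 receptors other than Adra1a each rested on 911 to 1191 fragments over all libraries. Among the 1031 genes within this range, the interval lay below 0 in 15.9% and above 0 in 9.99%, so that 1 of 5 receptors is near what genes of like coverage gave. The median absolute log2 ratio of these 1031 genes was 0.106, near the 0.092 of the 6 receptors, whereas the 0.13 covers genes of every coverage.

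**Figure D1:**
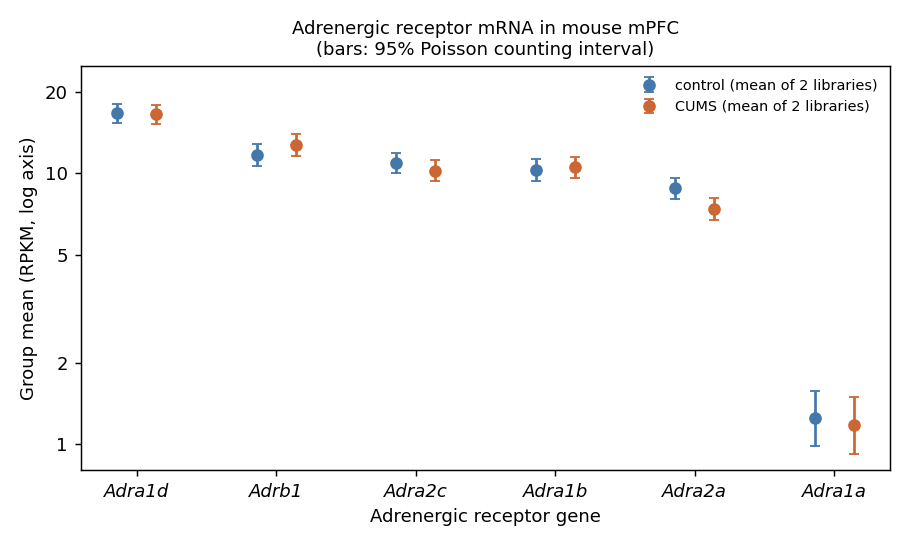
Group means of the 6 adrenergic receptor genes in control (blue) and CUMS (orange) in RPKM on a log axis, with 95% Poisson counting intervals that do not cover differences between mice. The means of 5 genes lie between 7.405 and 16.69 RPKM in both groups, Adra1a lies near 1.2 RPKM, and the pairs of points differ most for Adra2a.

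The alpha1 class is described first. Adra1d (gene 11550, chromosome 2, 131545357 to 131562497, minus strand), the alpha1D receptor, was the most abundant of the 6 mRNAs per length in both groups. Its mean was 16.69 RPKM in control, on 597 fragments, and 16.57 RPKM in CUMS, on 594 fragments. Its log2 ratio of -0.01 (-0.18 to 0.16) was the closest to 0, and it became 0.0047 once the CUMS values were scaled so that the median gene was level, so that no direction can be given. GENCODE M21 places the antisense gene Gm14285 over an exon of Adra1d, and since the use of strand was not stated, reads of the pair cannot be told apart.

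Adra1b (gene 11548, chromosome 11, 43774605 to 43901250, minus strand), the alpha1B receptor, had a mean of 10.295 RPKM in control, on 469 fragments, and of 10.555 RPKM in CUMS, on 481 fragments. The log2 ratio was 0.036 (-0.15 to 0.22). Adra1a (gene 11549, chromosome 14, 66635251 to 66771240, plus strand), the alpha1A receptor, was the rarest of the 6. Its mean was 1.175 RPKM in CUMS, on 70 fragments (Poisson interval 0.922 to 1.49 RPKM), and the difference from the control mean, which rested on 74 fragments (0.983 to 1.57 RPKM), was -0.075 RPKM. Its log2 ratio of -0.09 had the widest interval of the 6, -0.57 to 0.41 (folds of 0.671 to 1.33), which includes equal expression. Summed over the class, alpha1 mRNA came to 28.2 RPKM in control and to 28.3 RPKM in CUMS, with counting errors (SE) of 0.845 RPKM in both.

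Among alpha2 receptors, both members had a lower mean in CUMS. Adra2a (gene 11551, chromosome 19, 54045259 to 54048982, plus strand), the alpha2A receptor, had a mean of 8.82 RPKM in control, on 503 fragments, and of 7.405 RPKM in CUMS, on 423 fragments. This is a fold of 0.84 and a log2 ratio of -0.25 (-0.44 to -0.063), the lowest of the 6. The ratio lay within the central 95% of the genes of like coverage, which ran from -0.41 to 0.31. The interval rests on the estimated depth, and at 0.5 times that depth it widened to -0.52 to 0.018. Adra2c (gene 11553, chromosome 5, 35278566 to 35281763, plus strand), the alpha2C receptor, which is known to be abundant in the striatum, had a mean of 10.945 RPKM in control, on 526 fragments, and of 10.245 RPKM in CUMS, on 493 fragments. Its log2 ratio was -0.1 (-0.28 to 0.084), and the interval includes equal expression. The alpha2 class together was 19.8 RPKM (SE 0.618) in control and 17.65 RPKM (SE 0.585) in CUMS, a log2 ratio of -0.16 with a counting SE of 0.066.

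Adrb1 (gene 11554, chromosome 19, 56722117 to 56725150, plus strand), the beta1 receptor and the main beta receptor of cortical neurons, had a mean of 11.695 RPKM in control, on 435 fragments, and of 12.77 RPKM in CUMS, on 476 fragments. The log2 ratio of 0.13 was the highest of the 6, and its interval of -0.063 to 0.32 includes equal expression. Further genes of the family were low. Adrb3 was 0.95 and 1.005 RPKM (40 and 42 fragments), and Adra2b was 0.405 and 0.265 RPKM (24 and 16 fragments) in control and CUMS, and both intervals of the ratio include equal expression.

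**Figure D2:**
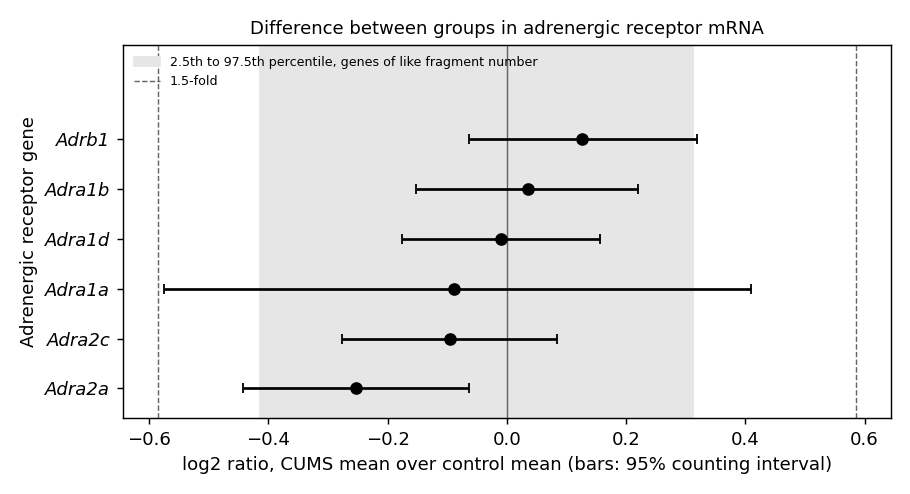
log2 of CUMS over control for the group means of each receptor, with its 95% counting interval; the grey band is the central 95% of the 1031 genes with 911 to 1191 fragments and the dashed lines mark 1.5-fold. All 6 ratios lie inside the dashed lines, and only the interval of Adra2a (-0.44 to -0.063) lies clear of 0; the band does not apply to Adra1a, which had 144 fragments.

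The ratios of the receptors were also compared with one another. Of the 15 pairs, the interval of the difference excluded 0 in 2 pairs, both of which involve Adra2a. The log2 ratio of Adra2a was 0.38 under that of Adrb1 (difference -0.38, interval -0.65 to -0.11), and that of Adra1b exceeded it by 0.29 (0.019 to 0.55). These intervals are not adjusted for the number of pairs, the pairs share genes, and no share over pairs of other genes was computed. For single genes of like coverage the counting interval lay below 0 in 15.9% and above 0 in 9.99%. The 2 pairs are therefore a description only. Adra2a and Adra2c, the members of 1 class, differed by -0.16 (-0.42 to 0.11), which does not separate them. Among the group means the level of Adra2a was 0.754 of that of Adrb1 in control and 0.58 in CUMS.

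The order of levels was much the same in both groups. In control it ran from Adra1d over Adrb1, Adra2c, Adra1b and Adra2a to Adra1a. In CUMS Adra1b and Adra2c had changed places, and in neither group did the interval separate this pair (fold of Adra2c over Adra1b 1.06 in control, 0.937 to 1.21, and of Adra1b over Adra2c 1.03 in CUMS, 0.906 to 1.17). Adra1d was 1.43-fold above Adrb1 in control (1.26 to 1.62) and 1.3-fold above it in CUMS (1.15 to 1.47). The gene next to Adrb1 differed between the groups, so that these are different pairs. Adrb1 could not be told from Adra2c in control (1.07-fold, 0.938 to 1.21). In CUMS Adrb1 lay above Adra1b (1.21-fold, 1.06 to 1.38). The intervals do not cover the choice of gene length. Adra2a stood 7.06-fold above Adra1a in control (5.5 to 9.11) and 6.3-fold above it in CUMS (4.85 to 8.18). Among all genes tested the receptors were of middle abundance. Adra1d exceeded 66.9% of the genes tested in control and Adra2a 49.5%, whereas Adra1a exceeded 12.2%.

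**Figure D3:**
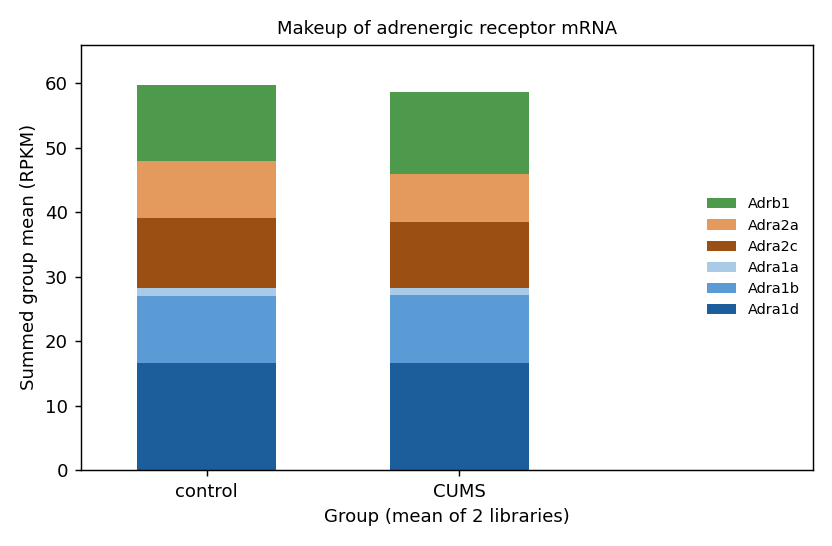
Stacked group means in RPKM of the 6 receptor genes in control and CUMS, with the alpha1 class in blue, the alpha2 class in brown and the beta1 receptor in green. The total is 59.7 RPKM in control and 58.7 RPKM in CUMS, and the brown part is 33.1% and 30.1% of it.

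Summed over the 6 genes, receptor mRNA was 59.7 RPKM (SE 1.19) in control and 58.7 RPKM (SE 1.18) in CUMS, a log2 ratio of -0.024 with a counting SE of 0.041. The alpha1 class made up 47.3% of this sum in control and 48.2% in CUMS. The alpha2 class made up 33.1% and 30.1%, and Adrb1 made up 19.6% and 21.7%. The level of alpha2 over beta1 mRNA was thus 1.69 in control and 1.38 in CUMS, and that of alpha1 over alpha2 mRNA was 1.43 and 1.6. These are ratios of mRNA per length and carry no information on receptor protein.

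The members differ in gene structure, which bears on how well their reads could be counted. The coding sequence lies in 1 exon in Adra2a, Adra2c and Adrb1 and in 2 exons in the alpha1 genes, whose spans reach 135990 bases in Adra1a. The coding lengths run from 1374 bases in Adra2c to 1686 bases in Adra1d. The gene lengths that the authors used for RPKM differed from the longest GENCODE M21 coding transcript in each gene. They were 2394 against 1899 bases in Adra1d, 2491 against 2952 bases in Adrb1 and 3818 against 4832 bases in Adra2a, so that levels between genes depend on the gene model. The length cancels in the ratio between groups. Which reads are counted still depends on the model, and no other model was run. The longest identical stretch between transcripts of any pair of receptors was 26 bases, for Adra2a and Adra2c, and 20 bases or fewer for the other 14 pairs. These are shorter than the reads. The alignment allowed mismatches, so exact stretches alone do not show that every read was assigned to the right gene, and other genes were not compared.

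Receptors were then set beside the genes that make, remove and transduce their ligand, from lists of 80 different genes tested. Of these 36 were higher and 43 lower in CUMS, 1 was past 1.5-fold higher and 2 were past it lower, and the median log2 ratio was -0.023. Over all 14257 genes tested, 6639 were higher and 7589 lower, and 2.77% and 4.41% were past the fold in these directions. These shares are not matched for coverage. The genes past the fold all belong to noradrenaline synthesis. Th, tyrosine hydroxylase, which starts the synthesis of dopamine and noradrenaline, had a mean of 7.78 RPKM in control, on 204 fragments, and of 2.44 RPKM in CUMS, on 64 fragments, a log2 ratio of -1.67 (-2.10 to -1.26). Gch1, which makes the cofactor of Th, was 0.74 and 0.4 RPKM (31 and 17 fragments), a log2 ratio of -0.89 (-1.81 to 0.029). Pnmt, which turns noradrenaline into adrenaline, was 0.08 and 0.875 RPKM and rested on 1 and 12 fragments, a log2 ratio of 3.45 (0.83 to 9.0).

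Of the noradrenergic neuron markers, Th was at the levels above, and 2 that define these neurons more narrowly were low. Dbh, dopamine beta-hydroxylase, which makes noradrenaline from dopamine, had 2 fragments in control and 12 in CUMS, a log2 ratio of 2.54 (0.42 to 5.78) and so in the direction opposite to Th. Slc6a2, the noradrenaline transporter, had 0 and 1 fragments. Dbh and Slc6a2 stayed under 0.5 RPKM in both groups. The lists of olfactory bulb genes, to which Th itself belongs, and of septal and hypothalamic genes were also mostly lower in CUMS (below). The source of the Th mRNA was not tested. Genes of packaging, uptake and breakdown gave 2 higher, 3 lower and 1 equal of 6 tested, with a median log2 ratio of -0.0039. In this list Maob, a monoamine oxidase, had a log2 ratio of 0.082 (-0.12 to 0.29). Maoa, the other monoamine oxidase, is given beside it and had -0.025 (-0.21 to 0.16). The lowest ratio of the list, chosen after its value was seen, was that of Slc18a2, the vesicular monoamine transporter, with 1.235 RPKM in control, 0.85 RPKM in CUMS and a log2 ratio of -0.54 (-1.11 to 0.0040).

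**Figure D4:**
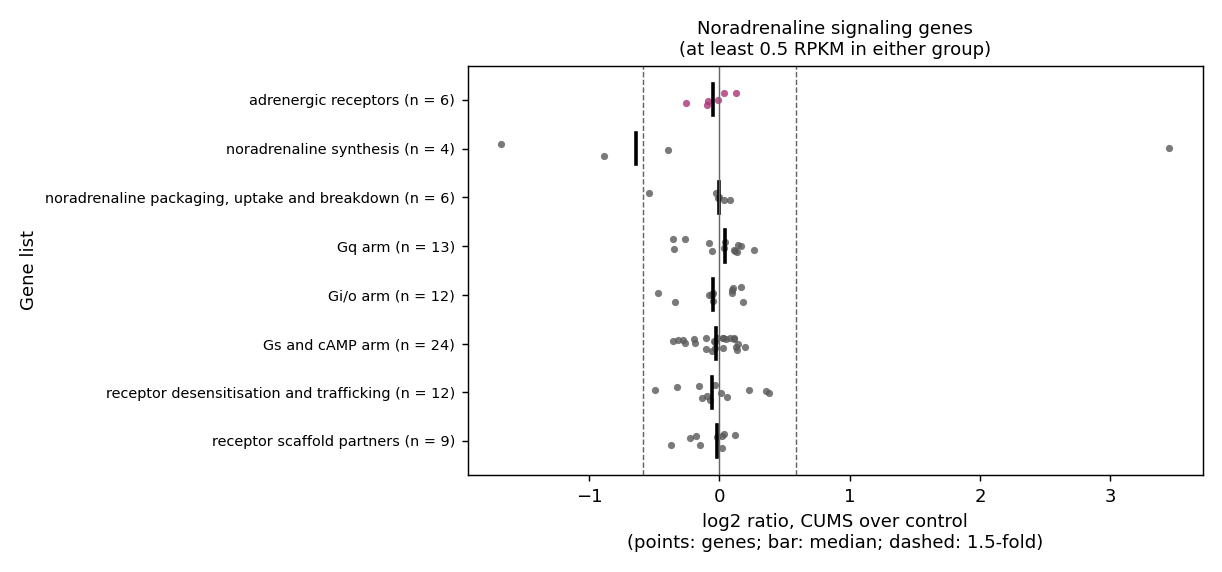
log2 ratio of CUMS over control for the genes of each list with at least 0.5 RPKM in either group; each point is a gene, the black bar is the median of the list and dashed lines mark 1.5-fold. All points outside the dashed lines (Th, Gch1 and Pnmt) belong to noradrenaline synthesis, and the median of the receptors is -0.05.

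Downstream of the receptors, 0 genes passed 1.5-fold in the Gq, Gi/o and Gs lists, the desensitisation list and the scaffold list. Over all genes tested, 2.77% were higher and 4.41% lower past this fold, and these shares are not matched for coverage. Several listed genes had far more fragments than the receptors (Gnas 20658 in control), so the 0 is a description only. The counts of intervals below stand beside 12.6% above 0 and 16.8% below 0 over all genes tested, a share that is not matched for coverage, and intervals narrow as fragments rise. The Gq list, which serves the alpha1 class, had 8 of 13 genes higher and a median log2 ratio of 0.048, and 5 counting intervals lay above 0 and 2 below. Among its most abundant members, the protein kinase C gene Prkcb had a log2 ratio of 0.14 (0.11 to 0.18). The Gi/o list, which serves the alpha2 class, had 5 of 12 genes higher, a median of -0.048 and 3 intervals on each side. Gnao1 and Gnai2, its main G protein subunits, had log2 ratios of 0.094 (0.054 to 0.13) and -0.08 (-0.15 to -0.012). The Gs and cAMP list, which serves the beta class, had 11 of 24 genes higher, a median of -0.026, and 5 intervals above 0 and 3 below. Gnas, the Gs subunit, had a log2 ratio of 0.031 (0.0028 to 0.058), and Prkar1b, a regulatory subunit of protein kinase A, of 0.13 (0.10 to 0.16).

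Genes that switch receptors off or hold them in place gave small differences as well. The desensitisation list had 5 of 12 genes higher, a median log2 ratio of -0.054, and 3 intervals above 0 and 5 below. Rgs4, which speeds the shutdown of Gi/o and Gq signals, had means of 112 and 146 RPKM in control and CUMS, a log2 ratio of 0.38 (0.33 to 0.44). Adrbk1, the receptor kinase also known as Grk2, was 108 and 101 RPKM, a log2 ratio of -0.091 (-0.15 to -0.035). In the scaffold list 4 of 9 genes were higher, the median was -0.021, and 1 interval lay above 0 and 3 below. The genes of spinophilin (Ppp1r9b), which binds alpha2 receptors, and PSD-95 (Dlg4), which binds the beta1 receptor, had log2 ratios of -0.021 (-0.048 to 0.0064) and 0.021 (-0.01 to 0.052).

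**Figure D5:**
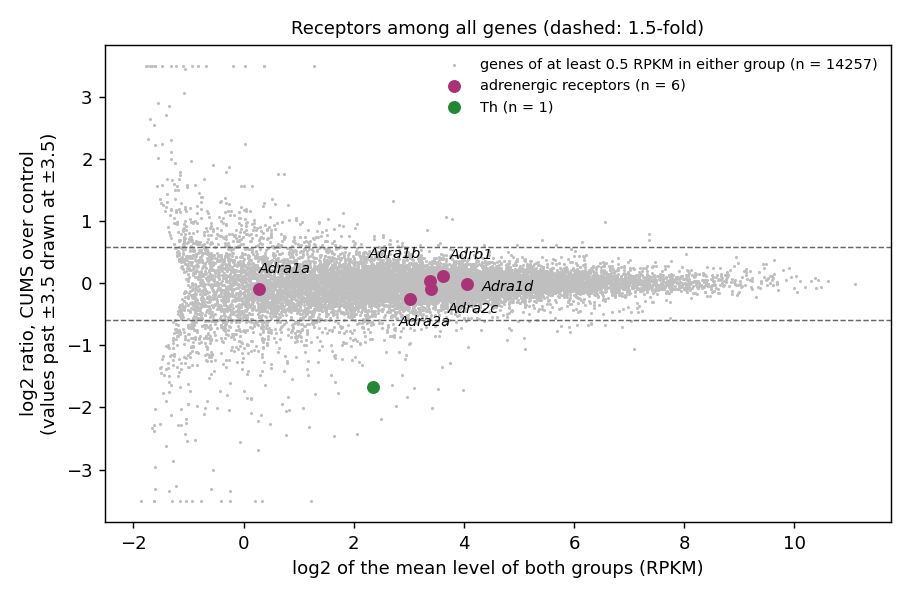
log2 ratio of CUMS over control against the log2 mean level for the 14257 genes tested (grey), the 6 receptors (purple) and Th (green), with dashed lines at 1.5-fold. The receptors lie within the body of the distribution, whereas Th lies at -1.67.

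Several marker lists moved between the groups, and their part in the receptor values was not tested. The tissue carried cortical markers, since Slc17a7, Neurod6, Tbr1, Emx1 and Neurod2 were all present, and 6 of 6 genes of the list of cortical excitatory neurons were higher in CUMS (summed level 741 RPKM in control and 927 RPKM in CUMS). Markers of oligodendrocytes were lower in 6 of 6 genes (1708 and 1139 RPKM), those of striatal projection neurons in 8 of 8 (390 and 337 RPKM), those of septum and hypothalamus in 9 of 10 tested (92.7 and 31.6 RPKM) and those of the olfactory bulb in 6 of 6 (67.1 and 31.9 RPKM). The 2 septal and hypothalamic markers below 0.5 RPKM, Hcrt and Avp, had 2 and 1 fragments in control and 4 and 1 in CUMS, so that neither was lower. Pmch, the tested marker of this list that was higher, had 5 fragments in control and 8 in CUMS. Of the same list, Zic1, Nts, Baiap3, Ecel1, Magel2 and Dlk1 are among the genes that the study itself lists as changed. So are some genes of the oligodendrocyte, olfactory bulb and blood lists, and the counts are not independent of the study. Blood markers were higher in 4 of 4 genes (222 and 385 RPKM). Markers of astrocytes (475 and 478 RPKM), interneurons (455 and 493 RPKM), microglia (132 and 140 RPKM) and vessels (79.4 and 64.8 RPKM) were higher in 4 of 6, 4 of 6, 4 of 6 and 2 of 6 genes.

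Likeness to other receptors could be judged only over 2 group means, as the Euclidean distance between the log2 levels of a pair of genes in control and CUMS. Among 22 dopamine, histamine, muscarinic and serotonin receptor genes tested, the nearest to Adra2a were Htr1a (7.995 RPKM in control and 6.06 RPKM in CUMS, at a distance of 0.32 in log2 units) and Drd1a (10.795 and 8.985 RPKM, distance 0.4). The nearest to Adra2c and to Adra1b were Drd1a (distances 0.19 and 0.24) and Drd2 (13.985 and 11.02 RPKM, distances 0.37 and 0.45). The nearest to Adrb1 were Chrm3 (11.45 and 15.78 RPKM, distance 0.31) and Drd2 (distance 0.33), and the nearest to Adra1d were Htr2c (15.125 and 12.22 RPKM, distance 0.46) and Chrm3 (distance 0.55). The nearest to the rare Adra1a were Htr1d (0.98 and 0.995 RPKM, distance 0.43) and Chrm2 (1.69 and 0.88 RPKM, distance 0.6). A small distance does not mean a like direction of change. Of the genes nearest to Adrb1, Chrm3 was higher and Drd2 lower in CUMS. Adra1b had a higher mean in CUMS, whereas Drd1a and Drd2 had lower ones.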

How the data were processed

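Poly(A) RNA of 4 mPFC libraries was sequenced in paired-end mode (Illumina HiSeq). By the methods of the study, reads were trimmed with SolexaQA and aligned to mm10 with TopHat 1.0.12 and Bowtie 0.11.3, and only uniquely aligned reads entered the values. Neither the annotation nor any use of strand is given in the sources used here. The deposited values are RPKM that the authors averaged over the 2 libraries of each group. The gene length deposited by the authors (another quantity, in bases) was used as given. A value of 0.01 stood in for 0. The columns of the authors' own comparison (their log2 ratio, its direction and a NOISeq probability) were not used.

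The log2 ratio was computed from the group means without a pseudocount. Mean times length grows by the same step with each fragment. The best step between 20 and 200 was sought in genes under 1000 bases whose product was below 350, and was 66.9 RPKM x bases in control and 66.8 in CUMS. With a tolerance of 0.15 steps, 87.9% of 406 control values and 87.5% of 392 CUMS values were whole multiples (36.7% and 38.3% after shuffling the lengths). The resulting depth assumes equal libraries within a group and is lower than the number of reads sequenced, for a reason not resolved. Clopper-Pearson 95% intervals of ratios, conditional intervals of odds ratios for pairs and Poisson intervals of levels cover counting error only, and PCR duplicates could not be removed. The interval step was tested on simulated data. Python 3.11.15, pandas 2.3.3, numpy 2.4.6 and scipy 1.17.1 were used.

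The members and gene lists were chosen with earlier results of these data known. Named were all members and, from each list, genes past 1.5-fold with at least 0.5 RPKM in either group, or else the 2 of highest level. Coordinates are RefSeq gene spans on GRCm38.p6 (mm10), matched by gene identifier for 6 of 6 members, and exons and antisense genes are from GENCODE M21. Protein sequences were not analysed here, and the values of some single genes that the rule names are not reported here.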

Additional observations from a re-analysis of the deposited data

How the results depend on the processing

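No paired analysis was possible because every value is a group mean, and leaving out replicates or fitting a replicate block was not run for the same reason. Of 52 values under alternatives, 51 kept their call or moved by less than their error. The exception was the number of receptors whose counting interval lies below 0, which was 1 and became 0 at 0.5 times the estimated depth. The receptor concerned is Adra2a, whose interval was -0.39 to -0.12 at 2 times the depth and -0.50 to -0.0042 as a 99% interval. Its log2 ratio ran from -0.26 to -0.24 over the pseudocounts of 0.1 and 0.5 and both rescalings of CUMS (shifts of 0.015 and -0.0076 in every log2 ratio). No receptor passed the fold of 1.5, the lower and higher folds tried in its place, or the fold of 1.5 under the other expression minimums and rescalings. Some of the 52 outcomes could not have differed. With 0 receptors past 1.5-fold, a higher fold or another expression minimum can only give 0 again. The same holds for wider intervals and the count above 0. A pseudocount cannot change the sign of a log2 ratio, and both rescalings shift it by less than the counting SE of every receptor. The single-gene outcomes were therefore largely fixed in advance, and 51 of 52 is no measure of robustness. Only Adra1d changed sign, to 0.0047 after rescaling to a median of 0, and it was still counted as kept because the move was within its error. The median of the 6 ratios moved by less than their SD, and their sum by less than its counting interval. The depth limits Adra1a most.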

Other observations

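Among the 22 dopamine, histamine, muscarinic and serotonin receptor genes tested, 8 were higher and 14 lower in CUMS, with a median log2 ratio of -0.11 beside -0.05 for the 6 adrenergic receptors. Past 1.5-fold lower were Htr7 (3.59 RPKM in control and 1.775 RPKM in CUMS, a log2 ratio of -1.02 with a counting interval of -1.42 to -0.63), Chrm2 (1.69 and 0.88 RPKM, -0.94, -1.65 to -0.22) and Htr4 (0.775 and 0.51 RPKM, -0.60, -1.24 to 0.048). Past it higher was Drd4, a dopamine receptor, with 3 fragments in control and 11 in CUMS and an interval of -0.048 to 4.35. Over all genes tested, 2.77% were higher and 4.41% lower past this fold. Counting intervals lay above 0 in 3 and below 0 in 7 of these 22 genes, against 0 and 1 of the 6 adrenergic receptors and 12.6% and 16.8% of all genes tested. Whether the families differ was not tested, and the values have no replicate check.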
